A study of Bos taurus with 12 samples.

Results

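The glycolytic isozymes described here were 10 genes, ENO1, ENO3, PGAM1, PGAM2, LDHA, LDHB, HK1, HK2, PFKM and GAPDH, taken by gene name from the 18436 genes of the deposited expression table. All 10 had a value, and all 10 were among the 12302 genes that were tested, those whose mean over the 6 input libraries reached 0.5 FPKM. FPKM, a fragment count scaled by transcript length and library size, is a level per length, so levels of different genes can be set side by side. Peaks carrying the name of a member were taken from the deposited N6-methyladenosine (m6A) peak lists, which gave 14 of 19739 peaks in myoblasts and 13 of 20790 in myotubes.

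The cells were primary myoblasts isolated from longissimus dorsi, a back muscle, and the methods name a single newborn Qinchuan animal as their source. Myoblasts (GM) were collected at 80% confluence in growth medium with 20% fetal bovine serum. Myotubes (DM) came from the same cells, brought to 100% confluence and kept for 4 days in differentiation medium with 2% horse serum. No transgene, deletion or drug treatment is given for either group. Each group had 3 input RNA libraries and 3 libraries of RNA immunoprecipitated with an m6A antibody, 12 libraries in all. With 1 animal as the source, p-values measure the spread between these samples and not between animals. Each library was bulk RNA, in which fewer cells of a type and less RNA per cell cannot be told apart.

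Glycolysis splits glucose into pyruvate in the cytosol, and lactate dehydrogenase converts pyruvate to lactate when its mitochondrial use does not keep pace. Several of its steps are run by isozymes, related enzymes from separate genes that differ in where they are made. Hexokinase traps glucose as its phosphate (HK1 in most tissues, HK2 in muscle and other insulin-responsive tissues), and phosphofructokinase makes the committed step, with PFKM as the muscle form. GAPDH oxidises glyceraldehyde 3-phosphate and is made in nearly every cell. Phosphoglycerate mutase (PGAM1 general, PGAM2 muscle) and enolase (ENO1 general, ENO3 muscle) act next. Lactate dehydrogenase is a tetramer of A chains, which prevail in fast skeletal muscle, and B chains, which prevail in heart. In developing muscle the general forms of enolase and phosphoglycerate mutase are known to give way to the muscle forms.

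The labels of the groups were checked against marker genes. All 3 myoblast markers (PAX7, MYF5 and MYOD1) and all 3 proliferation markers fell in DM, and 6 of 7 myotube markers rose, at an adjusted p under 0.05 in limma. The summed level of the proliferation markers went from 58.9 to 66.4 FPKM in the GM libraries to 3.56 to 5.20 in DM. Myotube markers were already high in GM, with sums of 543 to 565 FPKM against 1074 to 1118 in DM, and MYOG was at 197 ± 8.95 FPKM in GM and 243 ± 14.9 in DM (SD, n = 3). Among 6 fibroblast markers, COL3A1, PDGFRA and DCN rose and none fell. The summed level of all 6 went from between 10282 and 10429 FPKM in GM to between 11633 and 12197 in DM. Adipocyte markers summed to under 2 FPKM in every library, and CD68, the only leukocyte marker used, was also under 2. Endothelial markers summed to 0.293 to 0.444, and red cell HBA was at 0.203 to 0.555 in GM and at a listed 0 in DM. PTPRC, LYZ and HBB were not used here. The proliferation, myotube and fibroblast markers moved with the same contrast as the glycolytic isozymes, and their part in the results was not tested.

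Most glycolytic isozymes were lower in myotubes. On log2(FPKM + 1), with limma and Benjamini-Hochberg adjustment over all 12302 genes, 8 of the 10 fell (adjusted p under 0.05), HK2 alone rose, and PFKM did not pass the test. Over all tested genes, 26.7% fell and 16.1% rose by this rule. The threshold of the study's methods was an unadjusted p under 0.05 with a fold change over 1.5, applied there with edgeR. Applied here to the limma values, so that its calls are not the study's own, 5 members were lower (ENO1, PGAM1, PGAM2, LDHB and GAPDH). Of all tested genes 6.97% were. None was higher at that threshold, against 4.9% of tested genes, although HK2 had an unadjusted limma p of 5.51e-05. The 3 values of a group lay all above or all below those of the other group for 10 of 10 members, as they did for 54.1% of tested genes. The median log2 fold change of the 10 was −0.58, beside −0.05 over all tested genes. Together the members held 0.682% ± 0.0340 of the summed FPKM in GM and 0.466% ± 0.00658 in DM (SD, n = 3).

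Some calls depended on how the libraries were scaled, and 4 directions did so when GAPDH, itself a member that fell, was set equal. The sum of FPKM over all genes was lower in DM (386436.5 to 390826.9) than in GM (415740.2 to 434458.3), and conversion to TPM, which sets the sums equal, moved the median of all genes from −0.05 to 0.06. Under TPM 6 members fell and 1 rose, and over all tested genes 2993 rose and 2038 fell, in place of 1980 and 3288 on FPKM. At the study's threshold TPM gave 970 genes higher and 792 lower, in place of 603 and 858. With median-of-ratios size factors 7 members fell and 1 rose, and over all tested genes 2554 rose and 2663 fell. Setting GAPDH equal in all libraries moved that median to 0.48, and then 4 of the other 9 members rose and 1 fell.

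**Figure D1:**
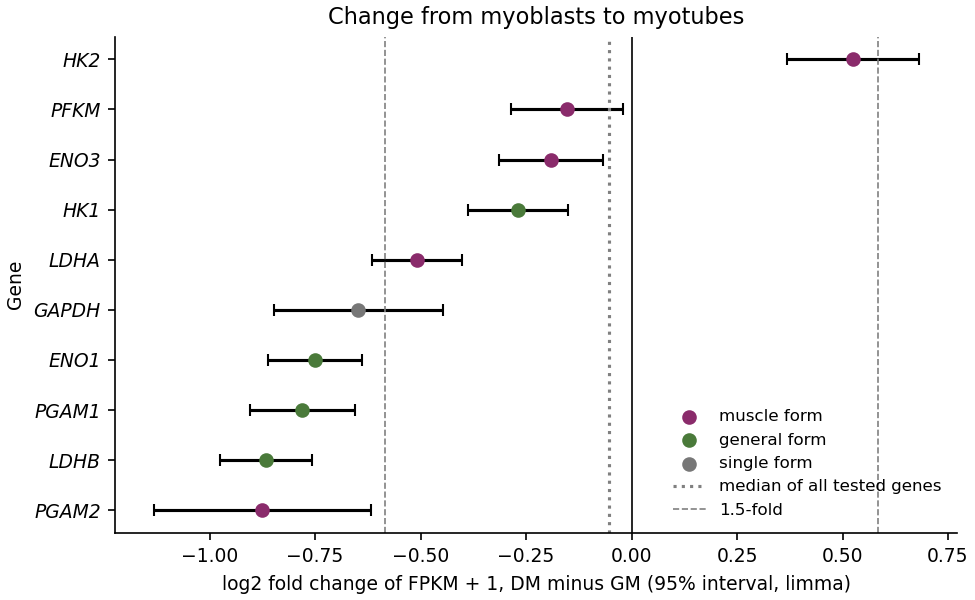
Log2 fold change of FPKM + 1, DM minus GM, for the 10 glycolytic isozymes (points, coloured by muscle, general or single form) with 95% intervals from limma. LDHB, whose chain prevails in heart, is coloured as a general form. The vertical lines mark the median of all tested genes (dotted) and a 1.5-fold change (dashed); HK2 lies to the right of 0 at 0.52, and the other 9 lie to the left, from −0.15 for PFKM to −0.87 for PGAM2.

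Both enolases fell on FPKM, with log2 fold changes of −0.75 for the general and −0.19 for the muscle form. ENO1, the general form (ENSBTAG00000013411, chr16:44553028-44566771, plus strand, ARS-UCD1.2), was at 663, 668 and 689 FPKM in the 3 GM libraries and at 388, 405 and 408 FPKM in the 3 DM libraries. Every DM library was below every GM library, by far more than the spread within either group. Its log2 fold change was −0.75 (SE 0.0481, 95% interval −0.86 to −0.64, limma adjusted p = 9.66e-06). ENO3, the muscle form (ENSBTAG00000005534, chr19:26437553-26447840, minus strand), was at 16.2, 16.5 and 17.0 FPKM in GM and at 14.11, 15.05 and 14.01 in DM. It fell by 0.19 on the log2 scale (SE 0.0534, adjusted p = 0.0206, limma), and that call was lost without GM replicate 2 (adjusted p = 0.0518), DM replicate 1 (0.0803) or DM replicate 3 (0.0739). The change of ENO3 was −0.13 with size factors and −0.08 under TPM, both short of the threshold (adjusted p = 0.105 and 0.314), and it turned to 0.42 with GAPDH set equal. On the opposite strand ENO3 shares 451 bases with PFN1, which was at 807 FPKM in GM and 534 in DM, and 1247 bases with SPAG7, which was at 44.9 and 44.8. The libraries keep strand, but whether strand was used when FPKM were computed is not given in the sources used here, so ENO3's low values are uncertain.

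The phosphoglycerate mutases both fell. PGAM1, the general form (ENSBTAG00000012697, chr26:18649023-18655665, plus strand), was at 334, 328 and 364 FPKM in GM and at 196, 197 and 203 in DM. The gap between the lowest GM and the highest DM library was far wider than the spread of either group, and the log2 fold change was −0.78 (SE 0.0540, limma adjusted p = 1.48e-05). PGAM2, the muscle form (ENSBTAG00000014547, chr22:390221-392579, minus strand), was at 4.87, 6.09 and 6.67 FPKM in GM and at 3.001, 2.833 and 2.375 in DM. Its log2 fold change of −0.87 (SE 0.112, 95% interval −1.13 to −0.62, limma adjusted p = 0.00044) was of about the size of that of LDHB, and 3.15% of tested genes had a lower one. It was the largest of the 10 by a margin that did not hold without GM replicate 2 (−0.85, beside −0.89 for LDHB), GM replicate 3 (−0.79, beside −0.86) or DM replicate 3 (−0.80, beside −0.88), nor with GAPDH set equal (−0.36, beside 1.13 for HK2). Because 1 FPKM was added before the logarithm, fold changes of low genes are understated, and with 0.1 added instead the change of PGAM2 was −1.07. PGAM2 thus fell in the same libraries in which 6 of 7 myotube markers rose.

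Over the 6 input libraries, POLD1 (Pearson r = 0.999) and INPPL1 (0.997) were among the genes whose log2(FPKM + 1) followed PGAM2 most closely. POLD1, the catalytic subunit of DNA polymerase delta, was at 4.65, 5.28 and 5.85 FPKM in GM and at 3.38, 3.28 and 2.93 in DM. With only 6 libraries in 2 separated groups, 690 genes had an r over 0.95 with PGAM2, so these are a description of likeness over shared libraries and nothing more.

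Both chains of lactate dehydrogenase fell on FPKM, the A chain by 0.51 and the B chain by 0.87 on the log2 scale. LDHA (ENSBTAG00000008683, chr29:26290893-26301350, minus strand) was at 281, 282 and 296 FPKM in GM and at 197, 204 and 201 in DM. The difference (SE 0.0463, limma adjusted p = 6.56e-05) was a 1.42-fold fall that stayed short of 1.5-fold, and it turned to 0.14 (adjusted p = 0.205) with GAPDH set equal. LDHB (ENSBTAG00000019603, chr5:88544523-88562783, plus strand) was at 206, 196 and 204 FPKM in GM and at 107, 111 and 113 in DM. The log2 fold change was −0.87 (SE 0.0469, 95% interval −0.97 to −0.76, limma adjusted p = 3.7e-06), the smallest adjusted p of the 10.

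The hexokinases went opposite ways. HK2 (ENSBTAG00000013108, chr11:9743172-9810098, minus strand) was at 13.1, 13.6 and 14.9 FPKM in GM and at 19.0, 21.0 and 21.1 in DM, with every DM library above every GM library. Its log2 fold change was 0.52 (SE 0.0679, 95% interval 0.37 to 0.68, limma adjusted p = 0.00047), and 94.2% of tested genes had a lower one. HK2 rose by 1.44-fold on FPKM + 1 and passed 1.5-fold under TPM and with GAPDH set equal, where its change was 1.13. HK1 (ENSBTAG00000012380, chr28:25694146-25769790, plus strand) was at 22.4, 22.7 and 23.3 FPKM in GM and at 18.0, 19.4 and 18.8 in DM. It fell by 0.27 on the log2 scale (SE 0.0512, limma adjusted p = 0.00346). The fall was −0.15 under TPM (adjusted p = 0.0505) and became a rise of 0.35 (adjusted p = 0.0141) with GAPDH set equal. The 3′ end of HK1 shares 852 bases with TACR2 on the other strand, which was at 0.453 FPKM in GM and 0.306 in DM.

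PFKM, the muscle phosphofructokinase (ENSBTAG00000000286, chr5:32145678-32189023, minus strand), was low in both groups, at 5.42, 5.50 and 5.73 FPKM in GM and at 5.04, 4.80 and 4.84 in DM. The groups did not overlap, but the difference of −0.15 on the log2 scale (SE 0.0579, 95% interval −0.29 to −0.02) did not pass the limma test (adjusted p = 0.0651). With GAPDH set equal it was 0.39 (adjusted p = 0.00746). The other forms of the enzyme were more abundant, PFKL, the liver form, at 38.2 ± 2.68 FPKM and PFKP, the platelet form, at 24.2 ± 2.18 in GM (SD, n = 3). Both fell, to 28.5 ± 0.640 FPKM for PFKL (log2 fold change −0.41, limma adjusted p = 0.000997) and to 19.2 ± 1.45 for PFKP (−0.32, limma adjusted p = 0.0129). PFKM made up 8.19% ± 0.322 of the summed FPKM of the 3 phosphofructokinase genes in GM and 9.31% ± 0.490 in DM.

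GAPDH (ENSBTAG00000014731, chr5:103870384-103874824, minus strand) had the highest level of the 10 in both groups, at 1269.7, 1189 and 1508 FPKM in GM and at 827, 864 and 827 in DM. GM replicate 3 was the highest library, and the spread in GM (SD 166) was wider than in DM (SD 21.7). Its log2 fold change was −0.65 (SE 0.0870, 95% interval −0.85 to −0.45, limma adjusted p = 0.000564), and −0.55 without GM replicate 3, which is less than 1.5-fold. The 1.57-fold fall on FPKM came just under 1.5-fold with size factors (−0.58) and under TPM (−0.52). GAPDH was the reference gene of the RT-qPCR in the study, and its primer pair is shown because the change of GAPDH bears on any ratio to it. The 5′ to 3′ sequences come from the study's primer list and were not matched to a position in the gene, and no part of them is marked.
qGAPDH-F: agttcaacggcacagtcaagg
qGAPDH-R: accacatactcagcaccagca

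**Figure D2:**
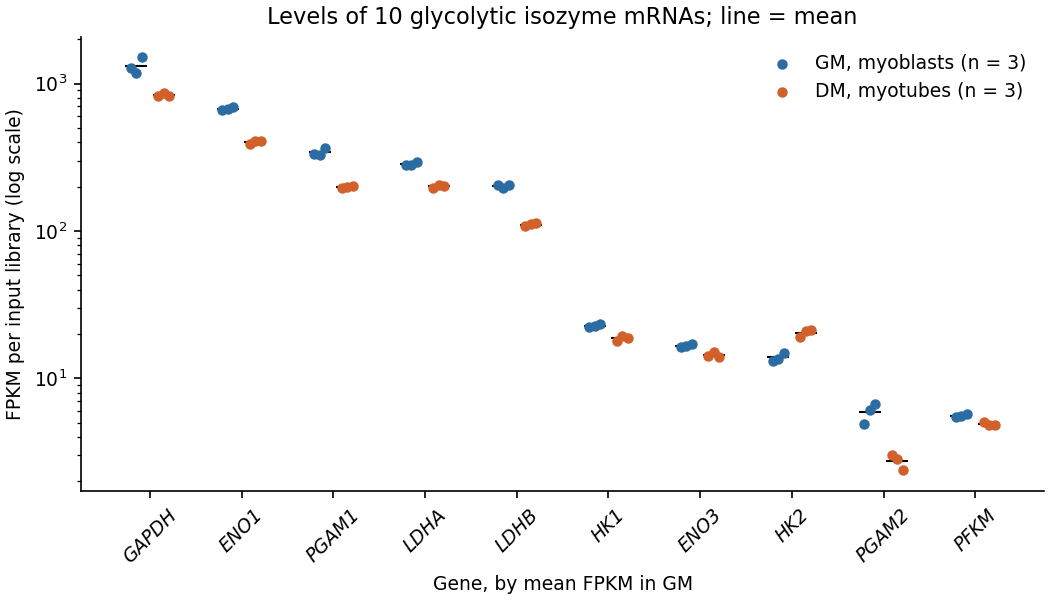
FPKM (log scale) of each input library for the 10 glycolytic isozymes, ordered by mean level in GM, with a short line at the group mean (n = 3). GM libraries are blue and DM libraries orange; the blue points are above the orange ones for every gene except HK2.

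In order of mean FPKM in GM, the members ran GAPDH, ENO1, PGAM1, LDHA, LDHB, HK1, ENO3, HK2, PGAM2 and PFKM, and the ranges of only the last pair overlapped. A wide step lay between LDHB at 202 ± 5.36 FPKM and HK1 at 22.8 ± 0.435. In DM the order was GAPDH, ENO1, LDHA, PGAM1, LDHB, HK2, HK1, ENO3, PFKM and PGAM2. There the ranges of LDHA and PGAM1 overlapped, as did those of HK2 and HK1, although HK2 was above HK1 within each DM library. HK2 moved from below HK1 and ENO3 in GM to a range that overlapped that of HK1 in DM.

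The balance between the forms of an enzyme was compared within each library, where a common scaling factor cancels apart from the added 1 FPKM. ENO3 as a share of the summed FPKM of ENO3 and ENO1 was 2.38%, 2.40% and 2.41% in GM and 3.51%, 3.58% and 3.32% in DM. The muscle form thus held a larger share in every DM library, while its own level was lower. This share rests on the ENO3 values, which are uncertain because of the overlap with PFN1 and SPAG7. The effect of that overlap on the share was not tested. PGAM2 held 1.44%, 1.82% and 1.80% of the phosphoglycerate mutase pair in GM and 1.51%, 1.42% and 1.16% in DM, and here the groups overlapped. LDHA held 57.7%, 59.0% and 59.2% of the lactate dehydrogenase pair in GM and 64.8%, 64.8% and 64.1% in DM. HK2 held 36.9%, 37.4% and 39.0% of the hexokinase pair in GM and 51.3%, 52.0% and 52.9% in DM, past one-to-one in every DM library.

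For lactate dehydrogenase LDHA was taken as the muscle form and LDHB as the other form, although B chains prevail in heart. The log2 ratio of muscle to other form differed by 0.56 for ENO3 over ENO1, by 0.36 for LDHA over LDHB and by 0.79 for HK2 over HK1, DM minus GM. Each of these had p = 0.1 in an exact two-sided permutation test over the 6 libraries, the smallest p that 3 against 3 allows, and 0.133 after adjustment over the 4 pairs, so this test could not reach 0.05. For PGAM2 over PGAM1 the difference was −0.09 (exact permutation p = 0.5, adjusted 0.5). That value rests on the 1 FPKM added, being −0.29 (exact permutation p = 0.2) with 0.1 added and −0.22 under TPM or with GAPDH set equal, and it ran from −0.19 without GM replicate 1 to −0.01 without DM replicate 3. In GM the general forms stood 40.7-fold above the muscle form for enolase and 58.2-fold for phosphoglycerate mutase, and in DM 27.8-fold and 72.6-fold. The enolase ratios carry the same uncertainty as the ENO3 values. After 4 days in differentiation medium, ENO1 and PGAM1 were still by far the main forms. The ratio of HK1 to HK2 was 1.64 in GM and 0.920 in DM.

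**Figure D3:**
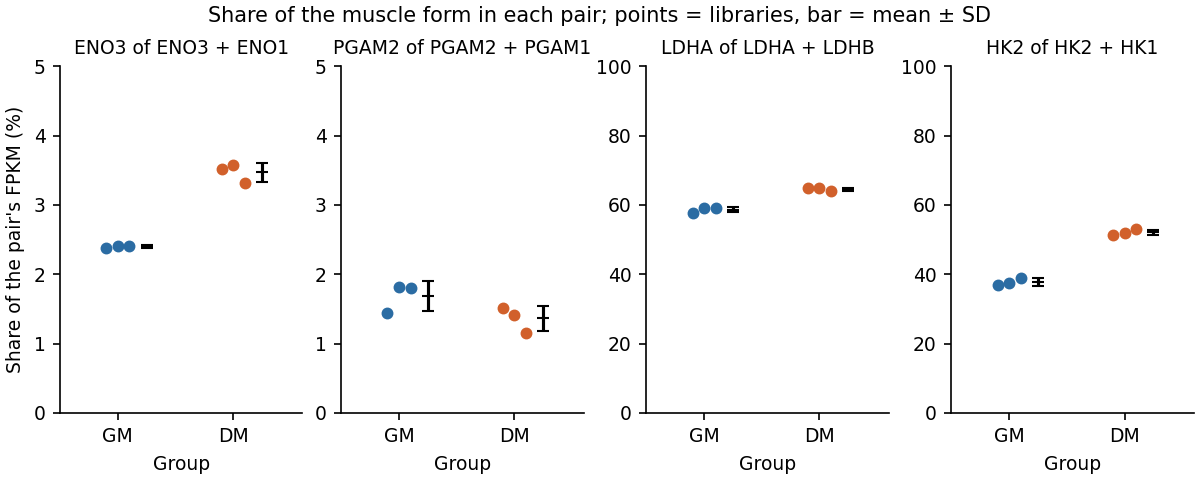
Share (%) of the muscle form in the summed FPKM of its isozyme pair, 1 panel per enzyme, with a point per input library and the mean ± SD (n = 3) beside the points. The axis ends at 5% for ENO3 and PGAM2 and at 100% for LDHA and HK2; DM points are above GM points for ENO3, LDHA and HK2 and overlap them for PGAM2.

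**Figure D4:**
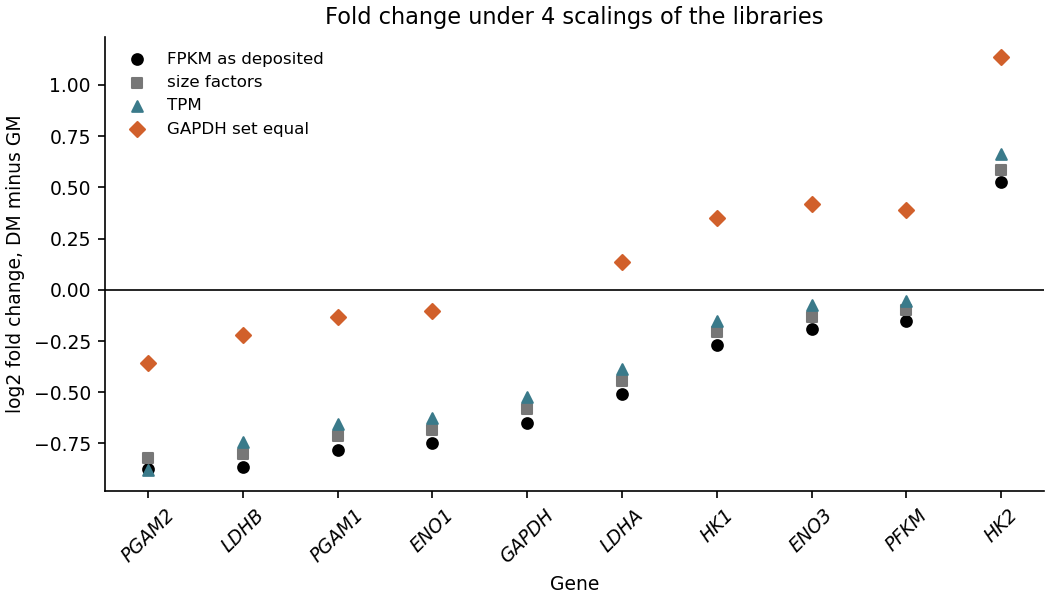
Log2 fold change (DM minus GM) of each glycolytic isozyme with FPKM as deposited (circles), size factors (squares), TPM (triangles) and GAPDH set equal in all libraries (diamonds, no value for GAPDH). PGAM2, LDHB, PGAM1 and ENO1 are below 0 and HK2 is above 0 under all 4 scalings, while LDHA, HK1, ENO3 and PFKM are below 0 under the first 3 and above 0, from 0.14 to 0.42, with GAPDH set equal.

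The rest of the pathway came from a list of 50 further genes of glycolysis, glucose and lactate transport and the control of both, of which 42 were in the table and 35 were tested. Of these 35, 4 rose, 12 fell and 19 did not pass the test, where 16.1% of all tested genes rose and 26.7% fell. Their median log2 fold change was −0.06, close to the −0.05 of all tested genes. Among the 11 other glycolytic enzymes tested none rose (limma, also 0 at an unadjusted p under 0.05), 5 fell and 6 did not pass. ENO2, the neuronal enolase, was at 3.34 ± 0.131 FPKM in GM and 3.16 ± 0.285 in DM (−0.06, limma adjusted p = 0.529). HK3 was at 0.222 ± 0.0583 and 0.256 ± 0.0369 FPKM, below the level tested, and HKDC1 and LDHD were not analysed here. Of the 7 tested genes of glucose and lactate transport 4 fell and none rose (limma, also 0 at an unadjusted p under 0.05), and of the 17 tested genes that control glycolysis and pyruvate entry 4 rose and 3 fell.

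Past the study's threshold were 4 of these 35 genes, beside 11.9% of all tested genes in either direction. BSG (basigin), the chaperone that brings lactate transporters to the membrane, went from 668 ± 36.6 to 356 ± 18.3 FPKM (log2 fold change −0.90, limma adjusted p = 1.32e-05). SLC16A1, the lactate transporter MCT1, went from 66.9 ± 6.48 to 44.0 ± 2.42 (−0.59, limma adjusted p = 0.000517). PFKFB3, which makes the fructose bisphosphate that activates phosphofructokinase, went from 5.21 ± 0.203 to 8.77 ± 0.462 (0.65, limma adjusted p = 8.68e-05). HIF1A, a transcription factor of the oxygen response, went from 71.3 ± 8.56 to 111 ± 0.414 (0.64, limma adjusted p = 0.000452). The 2 that fell were transport genes and the 2 that rose were control genes, each with n = 3 per group. No pattern is read from so few genes, and SLC16A1 was only just past the threshold, at 1.506-fold.

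m6A on mRNA is found by precipitating RNA fragments with an antibody and comparing them with the input, and it is concentrated near stop codons and in 3′ untranslated regions. The peaks were called once per group on pooled libraries, so a fold enrichment (immunoprecipitated over input) has no replicate error and no test is given. In GM 5 of 10 members carried a peak and in DM 6 of 10, beside 70.9% and 78.7% of tested genes. The shares were 70.2% and 79.9% of genes at 10 FPKM or more, and 58.1% and 70.8% of the 360 genes at least as abundant as LDHB. PGAM1, PGAM2, LDHA and GAPDH had no peak in either list, 4 of 10 members beside 19.0% of tested genes. Among those 360 abundant genes, 27.2% had no peak. Of the 35 other genes of the pathway 9 had none. By annotation 7 of the 14 GM peaks and 9 of the 13 DM peaks of members lay in a 3′ UTR, 6 and 3 in an exon and 1 in each list in a 5′ UTR. The 3′ UTR counts include 1 GM and 2 DM entries of HK1 whose gene is uncertain and which overlap other HK1 entries.

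Both enolases carried a single peak in each list. The ENO1 peak lay at the end of its 3′ UTR, chr16:44566653-44566712 in GM with a fold enrichment of 1.22 and chr16:44566564-44566771 in DM with 1.74, both below the medians of 3.27 and 3.38 over the lists. The ENO3 peak lay at chr19:26437553-26440566 with the same 4 exon blocks and 450 bases in both lists, at 3.04 in GM and 2.19 in DM. The DM over GM ratio was 1.43 for ENO1, whose peaks share only 60 bases of the 208 in the DM peak, and 0.720 for ENO3, both within the 1.5 used as the limit of change. The first block of the ENO3 peak lies within the stretch shared with SPAG7.

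LDHB was the only lactate dehydrogenase with a peak. In GM it had an exon peak at chr5:88558438-88561121 (fold enrichment 1.73) and a 3′ UTR peak at chr5:88562545-88562605 (1.57), and in DM a single peak of 684 bases over both at chr5:88558408-88562783 (2.05). A merged call of this kind gives no one-to-one ratio. PFKM had no GM peak and 1 DM peak at the end of its 3′ UTR, chr5:32145678-32145887, with a fold enrichment of 2.81. An absent peak means that none was called, at the low level of PFKM, not that the mark is absent.

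The hexokinases held most of the peaks. HK2 carried 2 exon peaks in each list, at chr11:9748505-9748753 in GM (2.77) and chr11:9748505-9749900 in DM (3.60), and at chr11:9762547-9763838 in GM (1.57) and chr11:9759868-9763036 in DM (1.73). Their ratios, DM over GM, were 1.30 and 1.10. HK1 had 8 peaks in GM, with fold enrichments of 1.19 to 7.62, and 7 in DM, of 1.70 to 4.79. The strongest, at chr28:25768681-25768741 in GM (7.62), had a p of 0.027 and a false discovery rate over 0.05, as had the 5′ peak at chr28:25694146-25697444 (4.36, p of 0.042). A 3′ UTR peak of HK1 lay at chr28:25767813-25768232 in GM (3.97) and chr28:25767783-25768202 in DM (3.09), a ratio of 0.778, and an exon peak went from 1.63 to 1.70, a ratio of 1.04. In the stretch shared with TACR2, 1 GM and 2 DM entries under the name HK1 stood apart from the other HK1 entries in the lists. Of these 1, chr28:25769519-25774055, ran beyond the end of HK1, so their gene is uncertain. Each overlapped another HK1 entry of the same list, so the counts of 8 and 7 hold some stretches more than once.

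Across the members 6 one-to-one pairs of 1 GM and 1 DM peak shared at least 1 base of exon. Of these, 0 of the 6 had a ratio over 1.5 in either direction. Overlaps that were not one-to-one, in LDHB and HK1, are outside this count. For HK1, the GM peak at chr28:25697504-25697594 (4.98) lay within a DM peak at 3.29, which also overlapped a GM peak at 4.36. Its GM entries at 4.51 and 4.36 in the 3′ UTR overlapped DM entries at 3.31 and 3.19. For LDHB, the GM peaks at 1.73 and 1.57 lay within a DM peak at 2.05. Of the 10239 one-to-one pairs over all genes, 14.2% had a ratio over 1.5 in DM over GM and 10.8% in GM over DM. The median log2 ratio was 0.07. The member pairs ran from 0.720 for ENO3 to 1.43 for ENO1. HK2, the only member whose level rose, had ratios above 1 at both peaks. ENO1 and an exon peak of HK1 (1.04) also had ratios above 1, although the levels of both genes fell. The pairs of ENO3 and of the HK1 3′ UTR peak (0.778) had ratios below 1.

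**Figure D5:**
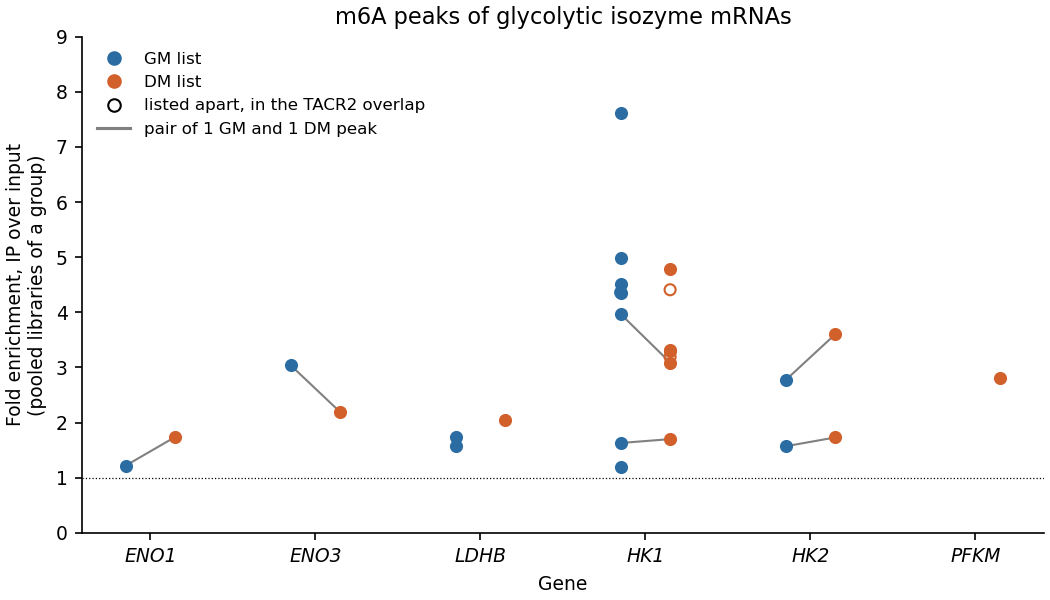
Fold enrichment (immunoprecipitated over input, pooled libraries of a group) of every m6A peak of the 6 glycolytic isozymes that had one, GM in blue and DM in orange, with a line joining each pair of 1 GM and 1 DM peak. Open circles are the entries named HK1 that stood apart in the lists, in the stretch shared with TACR2. HK1 reaches 7.62 in GM and 4.79 in DM. Of the paired peaks, ENO1 is lowest in GM at 1.22, and an exon peak of HK1 is lowest in DM at 1.70 (no error bars, since lists were pooled).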

How the data were processed

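The authors cleaned the reads, aligned them with HISAT2 to the cattle genome ARS-UCD1.2, computed FPKM of the 6 input libraries with StringTie, and called peaks with exomePeak on the pooled libraries of each group. The deposited peak lists give fold enrichment (a ratio), p-value and false discovery rate. Tool versions are not given in the sources used here. The deposited FPKM table holds no counts and the study's read totals were not used, so the precision of an FPKM value was taken from the spread of 3 libraries per group.

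Here log2(FPKM + 1) was fitted with limma 3.58.1 (variance trend, two-sided, R 4.3.3) over the 12302 genes averaging 0.5 FPKM or more, and adjusted by Benjamini-Hochberg. A gene rose or fell at an adjusted p under 0.05. Isozyme ratios were tested by exact permutation over libraries. Peaks were paired when exactly 1 GM and exactly 1 DM peak shared at least 1 base of exon on the same strand (Python 3.11.15). The fit was tested on simulated data with 200 changed genes.

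The members and gene lists were chosen with earlier results of these data known. Named were the members, other forms of their enzymes, pathway genes past the study's threshold (at most 6) and the 3 genes most like the member with the largest change, of which 1 is not reported here. Alternatives covered the pseudocount, the filter, scaling, the replicate block, the variance trend, thresholds, peak strictness and each library left out. Reads, motifs and peaks of single libraries were not analysed here, and no genome of this build was used.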

Additional observations from a re-analysis of the deposited data

How the results depend on the processing

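Over settings other than leaving out a library, 68 of 79 member values kept their direction and side of the threshold, 7 lost the call and 4 reversed. With each library left out in turn, 57 of 60 did so, and the 3 others were all ENO3. The 4 reversals all came from setting GAPDH equal, which by construction raises every gene in DM relative to GM by the fall of GAPDH, and is no independent check of direction. The values there were 0.42 for ENO3, 0.14 for LDHA, 0.35 for HK1 and 0.39 for PFKM. There members gave 4 higher and 1 lower by adjusted p and 1 higher and 0 lower at the study's threshold, the other pathway genes 26 and 1, and 13 and 0, and all genes 9128 and 477, and 4369 and 249. Under TPM 1 member was higher at the study's threshold, 7 other pathway genes rose and 1 was lower at that threshold, and over all genes 2993 rose, 2038 fell and 970 were higher at that threshold. Size factors left 1 other pathway gene lower at that threshold. On FPKM + 1, a fold change over 2 left 0 members lower. With 0.1 added instead, PGAM2 was past 2-fold, at a log2 fold change of −1.07. Without 1 library the other pathway genes lower at the study's threshold were 1 to 2 (1 without GM replicate 1, GM replicate 2 or DM replicate 2) and those higher 1 to 2 (1 without GM replicate 3). At a fold enrichment of at least 2, 3 members kept a GM peak, with 8 GM peaks in all. The cause of the other changes was not tested.

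Deviations of same-numbered libraries from their group means had correlations of −0.08, −0.12 and −0.21. With 3 libraries per group this cannot decide whether same-numbered libraries were paired in culture or preparation. With the replicate block ENO3 did not pass (adjusted p = 0.0672), and no other member's call changed. Filters and the variance trend do not enter the isozyme ratios, which come from no fit. The FPKM table holds no counts, so no counting error was set on the low values of PGAM2 and PFKM.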
